A study of Mus musculus with 9 samples.

Results

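Genes that make, break down or control polyamines were followed through an RNA-immunoprecipitation sequencing (RIP-seq) experiment on the phosphorylated form of the RNA helicase UPF1 (p-UPF1). The 8 genes were Oaz1, Oaz2, Azin1, Odc1, Amd1, Sat1, Srm and Sms, taken as the rows of the count table whose NCBI Gene numbers carry those symbols, which gave 8 of 27179 rows. Splenic B cells of wild-type mice, purified as CD43-negative cells, were activated for 72 h with 5 ug/mL CD40L, 10 ug/mL anti-IgM antibody and 20 ng/mL IL-4, as the labels have it. The study's methods name an anti-CD40 antibody in place of CD40L, and the labels give no strain or age. All libraries therefore came from activated cells, and there was no resting or UPF1-deficient group. RNA was sequenced from the anti-p-UPF1 precipitate, from the precipitate of normal rabbit IgG, and from the lysate before precipitation (input), with 3 libraries in each of the 3 groups. The labels do not say that the 3 libraries of a group came from separate animals or cultures, so the p-values measure the spread between these libraries only.

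Polyamines (putrescine, spermidine and spermine) are small cations that bind nucleic acids and are needed by dividing cells, lymphocytes included. Ornithine decarboxylase (Odc1) makes putrescine, and the pool is held steady by feedback: polyamines promote a forward shift of the reading frame on antizyme mRNAs, antizyme then directs ornithine decarboxylase to the proteasome and reduces polyamine uptake, and the antizyme inhibitor Azin1, a relative of ornithine decarboxylase without its activity, binds antizyme and frees the enzyme. Several of these genes carry a stop codon that is read only under some conditions, in an antizyme frame, in an alternative exon or in a short upstream reading frame. Nonsense-mediated mRNA decay (NMD) acts on transcripts whose stop codon lies well upstream of an exon junction or before a long 3′ UTR, and UPF1 is phosphorylated on transcripts that undergo it.

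The antizyme genes hold the clearest such stop. The bases around it are shown because the ribosome must shift frame at this place to make the full protein. In both sequences the capitals are the last codon before the shift, TCC, followed by TGA, the stop codon that ends the first frame. The sequences were read from GRCm38, the assembly that mm10 names, at chr10:80828280-80828309 on the plus strand for Oaz1 and at chr9:65686257-65686286 on the plus strand for Oaz2.
Oaz1: cctcggtggtgcTCCTGAtgtccctcaccc
Oaz2: cctctgtggtgcTCCTGAtgcccctcaccc
These 30-base windows were identical at 28 of 30 positions. Without the shift, translation ends after 68 codons in Oaz1, against 227 for the shifted protein, which is 29.96% of it. In Oaz2 it ends after 32 codons, against 189, or 16.9%. Each stop lies in exon 2 of 5, with 3 exon junctions after it, and the last of them is 344 nt further on in Oaz1 and 341 nt in Oaz2. In both genes the stop of the shifted frame lies beyond the last junction, and both RefSeq coding transcripts of each gene carry the annotation of ribosomal slippage. By these measures the first stops of Oaz1 and Oaz2 sit alike. The transcripts differ behind the coding part, where the 3′ UTR is 286 nt in Oaz1 and 1075 nt in Oaz2.

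Azin1 and Sat1 each have RefSeq transcripts with an additional exonic stretch that brings an early stop, commonly called a poison exon. The first 30 bases of each stretch are shown, with the first stop codon in frame in capitals. The Azin1 stretch is a 152-nt extension of an exon, of which chr15:38497521-38497550 on the minus strand of GRCm38 is printed. The Sat1 stretch is a separate exon of 110 nt, of which chrX:155215201-155215230 on the minus strand is printed.
Azin1: gattgtttttcatTAGgttcacttgattca
Sat1: gttacagtctcTAGcttcgccatgtacatg
With the stretch, the Azin1 reading frame ends after 154 codons instead of 448, and the stop lies 919 nt or 922 nt before the last junction in the 2 annotated transcripts that hold it. The Sat1 frame ends after 71 codons instead of 171, at 239 nt before the last junction. In Amd1, S-adenosylmethionine decarboxylase, the element is a reading frame upstream of the coding part, through which polyamines are known to repress translation. It is shown whole from chr10:40302155-40302175 on the minus strand, with its start and stop codons in capitals.
Amd1: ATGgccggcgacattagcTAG
This frame has 6 codons before its stop, starts at nt 14 of the transcript and ends 296 nt before the coding start. Upstream reading frames were also present in the main transcripts of Azin1 (3), Odc1 (2), Sat1 (2) and Sms (4), and none was found in Oaz1, Oaz2 or Srm. Of the 11896 tested genes with a RefSeq Select transcript, 46.1% had at least 1.

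**Figure D1:**
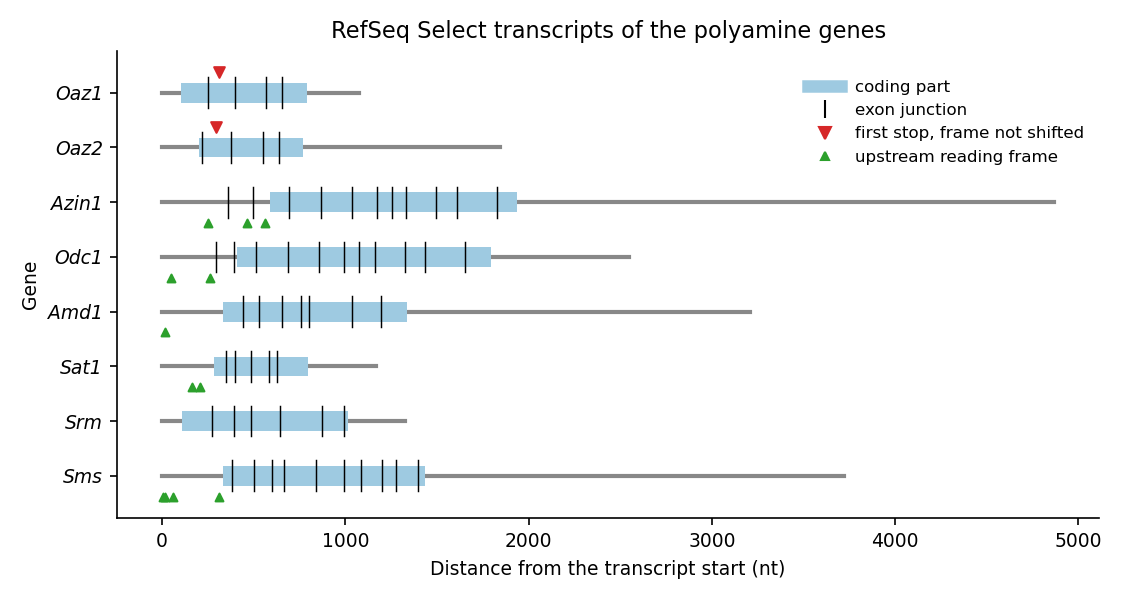
The RefSeq Select transcript of each gene is drawn to scale from its start (x axis, nt), with the coding part in blue, exon junctions as black ticks, the first stop of the unshifted frame as a red triangle and upstream reading frames as green triangles. Only the 2 antizyme genes have a first stop ahead of several junctions in the main transcript, and the longest 3′ UTR is that of Azin1, at 2931 nt.

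The counts are sums over all transcripts of a gene. A transcript with a poison exon and the main transcript of the same gene therefore cannot be told apart in them, nor can shifted and unshifted translation. Total counts ran from 19873687 to 24945286 in input, from 17372510 to 18550508 in IgG and from 23251890 to 24802119 in p-UPF1 libraries, and the members drew 402 to 17058 counts per library. Levels are given as CPM, the count of a gene relative to the total of its library, after TMM scaling, which sets libraries to a common level on the premise that most genes do not differ. The p-UPF1 contrasts do not meet this premise. Over IgG, 40.4% of tested genes were higher and 42.2% lower at an adjusted p under 0.05, so calls on small fold changes depend on the scaling. No spiked-in RNA ties the groups together, so each fold change is measured against the bulk of RNAs in the same libraries, and a different amount of RNA recovered cannot be seen. The B cell markers Cd79a, Cd79b, Ms4a1 and Pax5 summed to 2275 to 2292 CPM in input, 1518 to 1555 CPM in IgG and 1196 to 1266 CPM in p-UPF1 libraries. T cell, NK cell and erythroid lists each summed to at most 0.561 CPM, with Ncr1, Hbb-bs and Hba-a1 at 0 in every library, and the 3 plasma cell markers to between 18.8 and 28.3 CPM. The 4 myeloid markers summed to 14.6 to 15.4 CPM in input, 8.72 to 12.2 CPM in IgG and 3.17 to 4.02 CPM in p-UPF1 libraries, none of them at 0 throughout. Nearly all of this was Cd68, at a mean of 14.4, 9.85 and 2.93 CPM, and Lyz2 (0.196, 0.275 and 0.293 CPM) and Itgam (0.22, 0.0341 and 0.309 CPM) were not lower in p-UPF1 than in input. Their part in the results was not tested.

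To learn how abundant these mRNAs were before precipitation, levels were divided by exonic length. In input, Oaz1 was the highest at 183 ± 0.848 CPM per kb (SD, n = 3), followed by Srm at 118 ± 3.13 and Odc1 at 61.4 ± 1.02 CPM per kb. Sat1, Azin1 and Sms followed at 32.7 ± 1.86, 32.1 ± 1.48 and 31.9 ± 0.584 CPM per kb, and their libraries overlapped. Oaz2 (13.1 ± 0.412 CPM per kb) and Amd1 (11.5 ± 0.44 CPM per kb) were the lowest. In the p-UPF1 precipitate the order was another. Azin1 led with 134 ± 6.59 CPM per kb, ahead of Oaz1 at 66.8 ± 5.08 CPM per kb, and Srm (40.2 ± 3.13), Oaz2 (35.9 ± 0.904) and Sat1 (34.9 ± 2.58 CPM per kb) overlapped as neighbours. Odc1, behind only Oaz1 and Srm in input, came after these at 29.98 ± 0.964 CPM per kb, above Sms (17.8 ± 0.14) and Amd1 (14.2 ± 0.681 CPM per kb). In the IgG precipitate Oaz1 (160 ± 4.2 CPM per kb) was first, Srm and Odc1 overlapped at 77.3 ± 2.77 and 73.3 ± 2.77 CPM per kb, and Amd1 and Oaz2 were the lowest at 11.8 ± 0.964 and 11.5 ± 0.0964 CPM per kb, with overlapping libraries.

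**Figure D2:**
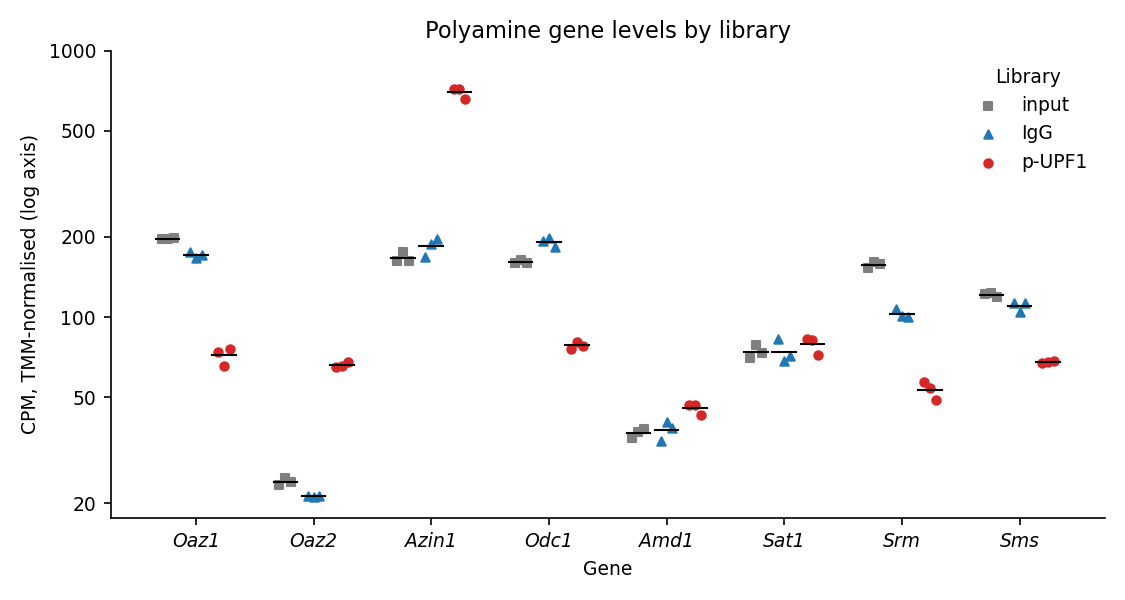
Each point is the level of a gene in 1 library (TMM-normalised CPM, log axis), in groups of 3 input, 3 IgG and 3 p-UPF1 libraries, with black lines at the group means. The p-UPF1 libraries lie above both backgrounds for Oaz2, Azin1 and Amd1, below both for Oaz1, Odc1, Srm and Sms, and among them for Sat1.

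The question put to each gene was whether the anti-p-UPF1 antibody recovered its mRNA beyond what a nonspecific antibody brought down and beyond its share of the lysate. All 8 genes passed the low-count filter. Over IgG, 3 of them were higher in p-UPF1 (Oaz2, Azin1, Amd1), 4 were lower (Oaz1, Odc1, Srm, Sms) and Sat1 passed in neither direction, at an adjusted p under 0.05 (quasi-likelihood test of edgeR, p-values adjusted by Benjamini-Hochberg over 13129 genes). Among all tested genes 40.4% were higher and 42.2% lower, so the members were split much as the transcriptome was. Over input the same genes were again 3 higher, 4 lower and 1 neither, where the shares of all tested genes were 40.8% and 42.6%. Both contrasts use the same p-UPF1 libraries, so their likeness is not independent. When a change of 1 or more on the log2 scale was asked for as well, Oaz2 and Azin1 were higher over IgG (22.2% of all tested genes were) and Oaz1 and Odc1 lower (21.9%). The median log2 fold change of the 8 was -0.30 over IgG, against -0.03 for all tested genes, with a range from -1.29 to 1.92. One gene, Azin1, met the study's criterion for p-UPF1-bound RNA, set at 1 or more above IgG together with 2 or more above input on the log2 scale, which 6.25% of all tested genes met.

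**Figure D3:**
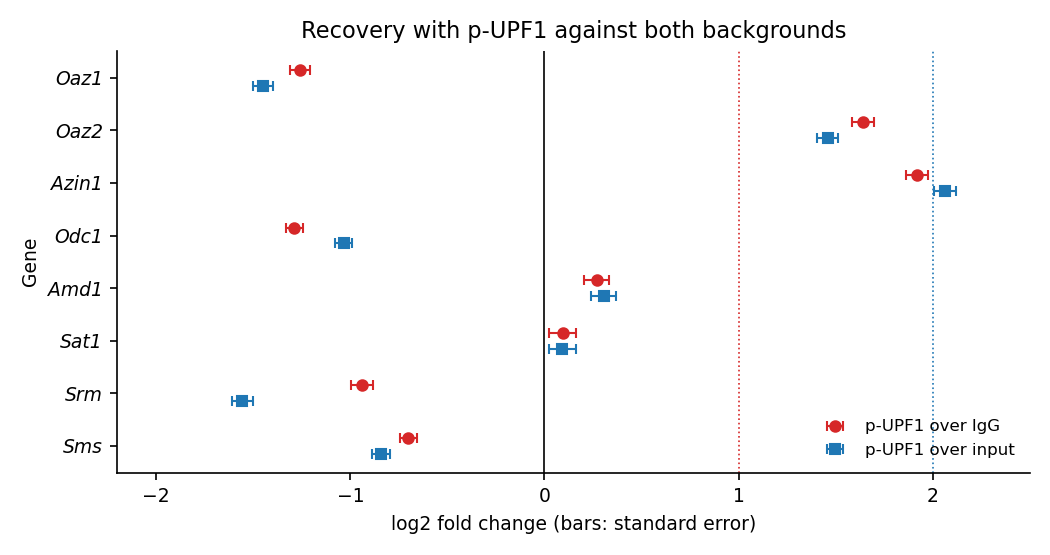
Log2 fold changes of p-UPF1 over IgG (red circles) and over input (blue squares) are drawn with their standard errors from the fit to 9 libraries, and dotted lines mark the minimum of the bound criterion in each colour. Azin1 alone lies right of both lines, and Oaz1 and Oaz2 lie on opposite sides of 0.

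The antizyme genes moved apart. Oaz1, the major antizyme, had 196, 196 and 197 CPM in input, 176, 167 and 172 CPM in IgG and 73.7, 65.6 and 76.0 CPM in p-UPF1 libraries. Every p-UPF1 library lay below every other one, and the log2 fold change was -1.26 ± 0.05 (SE) over IgG and -1.45 ± 0.05 over input, that is 2.39-fold and 2.74-fold lower (edgeR quasi-likelihood adjusted p = 5.51e-13 over IgG). Oaz2, a less abundant antizyme that also shifts frame, went the other way. It had 23.4, 24.9 and 24.0 CPM in input, 21.4, 21.0 and 21.3 CPM in IgG and 64.8, 65.7 and 68.0 CPM in p-UPF1 libraries. The groups did not overlap, and Oaz2 was 3.12-fold higher over IgG (log2 fold change 1.64 ± 0.06 SE, adjusted p = 5.36e-14 by the same test) and 2.75-fold higher over input (1.46 ± 0.05). It fell short of the criterion on the input side. Oaz1 stood at the 16.6th percentile of all tested genes over IgG and Oaz2 at the 89.0th.

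Azin1, the antizyme inhibitor, was recovered most. Its level was 163, 176 and 163 CPM in input, 169, 188 and 197 CPM in IgG, and 719, 719 and 660 CPM in p-UPF1 libraries. The lowest p-UPF1 library lay far above the highest background library. The log2 fold change was 1.92 ± 0.06 (SE) over IgG, or 3.79-fold (edgeR quasi-likelihood adjusted p = 8.93e-15), and 2.06 ± 0.06 over input, or 4.18-fold. The value over input exceeded the criterion's minimum by about its SE. With upper-quartile scaling it was 1.998, just short, and no member met the criterion, nor did any when the minimum itself was the null hypothesis (glmTreat). In 21 of 23 alternatives Azin1 met it. Among all tested genes Azin1 stood at the 92.1st percentile over IgG and the 94.3rd over input.

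Odc1, which encodes the enzyme that Azin1 resembles and protects, had 159, 164 and 159 CPM in input, 194, 197 and 183 CPM in IgG and 75.9, 80.9 and 78.1 CPM in p-UPF1 libraries. It was 2.45-fold lower over IgG (log2 fold change -1.29 ± 0.04 SE, edgeR quasi-likelihood adjusted p = 5.78e-14) and 2.05-fold lower over input (-1.04 ± 0.04). It was also the member that the nonspecific precipitate enriched most, at 1.19-fold over input.

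**Figure D4:**
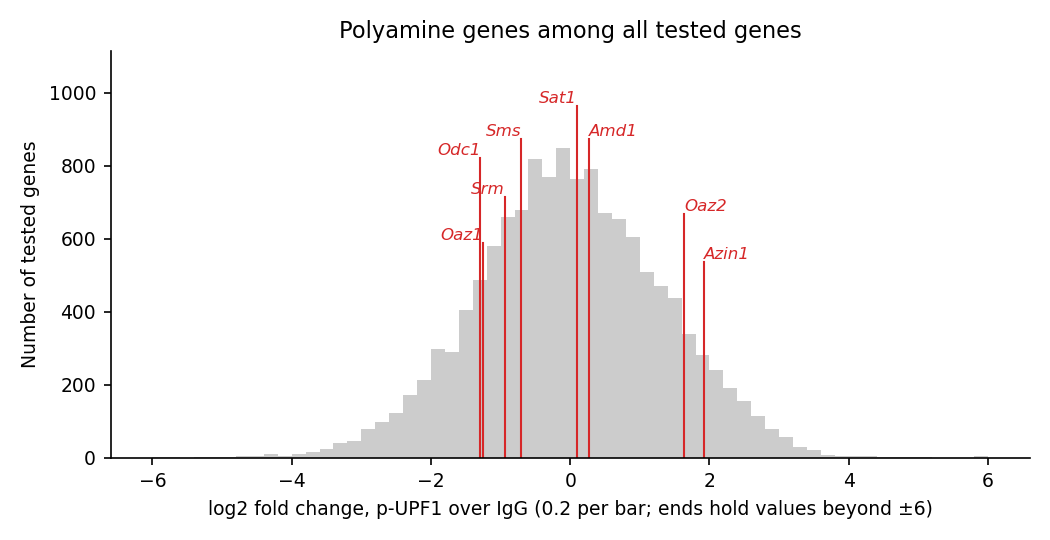
The grey histogram counts the 13129 tested genes by log2 fold change of p-UPF1 over IgG (x axis, 0.2 per bar), and red lines mark the 8 polyamine genes. The lines run from the 15.9th percentile (Odc1) to the 92.1st (Azin1).

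The genes that build spermidine and spermine were not alike. Amd1, which supplies the aminopropyl donor, had 35.3, 37.1 and 38.1 CPM in input, 34.3, 40.3 and 38.4 CPM in IgG and 46.8, 46.5 and 42.9 CPM in p-UPF1 libraries. The increase was small, 1.205-fold over IgG (log2 fold change 0.27 ± 0.07 SE, edgeR quasi-likelihood adjusted p = 0.00136) and 1.23-fold over input, yet no p-UPF1 library overlapped with another group. With library size alone as the scaling the value over IgG was 0.11 (adjusted p = 0.128), and with upper-quartile factors 0.13 (adjusted p = 0.0669). Srm, spermidine synthase, had 153, 161 and 159 CPM in input, 107, 101 and 100.2 CPM in IgG and 57.1, 54.3 and 48.9 CPM in p-UPF1 libraries. The 3 groups were in 3 separate ranges, and Srm was 1.92-fold lower over IgG (-0.94 ± 0.06 SE on the log2 scale, adjusted p = 8.34e-11 by the same test) and 2.94-fold lower over input, the most of any member. Sms, spermine synthase, had 122, 123 and 119 CPM in input, 113, 104 and 113 CPM in IgG and 67.1, 67.7 and 68.1 CPM in p-UPF1 libraries. It was 1.63-fold lower over IgG (-0.70 ± 0.04 SE on the log2 scale, adjusted p = 2.69e-10) and 1.79-fold lower over input.

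Sat1, the acetyltransferase that starts polyamine breakdown and export, had 70.4, 78.7 and 73.4 CPM in input, 82.7, 68.3 and 71.2 CPM in IgG and 82.6, 82.0 and 72.2 CPM in p-UPF1 libraries. These ranges overlapped, and the log2 fold change was 0.09 ± 0.07 (SE) over IgG (edgeR quasi-likelihood adjusted p = 0.236) and 0.09 ± 0.07 over input (adjusted p = 0.237). The call depended on the setting. Without IgG library A the value over IgG was 0.18 (adjusted p = 0.0106) and with no low-count filter 0.14 (adjusted p = 0.0317), while with library size alone it was -0.07. Against input it passed with no low-count filter (0.22), with an IgG library as the TMM reference (0.22) and with only the 2 groups fitted (0.12).

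Read sharing limits at least 2 of these genes. Amd2, an intronless copy of Amd1, has 1004 of the 1005 coding bases of Amd1, and its counts came to between 2.47% and 3.66% of those of Amd1 by group. The pseudogene Sms-ps held 20.3% to 27.1% of the Sms count by group and was itself lower in p-UPF1 (log2 fold change -0.94 over IgG), so how reads were divided between Sms and its copy is uncertain. The pseudogene Oaz1-ps had at most 31 counts in a library. RefSeq lists 10 pseudogenes of the members, and only 2 of them, Sms-ps and Oaz1-ps, are in the count table. The others are named as copies of Amd1 or Oaz2, and reads shared with them cannot be seen in the counts. No member has exons that overlap another gene on either strand.

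The nonspecific precipitate was compared with input to see what the background does. Of the 8 genes, Azin1 and Odc1 were higher in IgG (18.2% of all tested genes were) and Oaz1, Oaz2, Srm and Sms lower (34.7%), by the same test. The log2 fold changes, from -0.62 for Srm to 0.25 for Odc1, were smaller in size than the p-UPF1 contrasts of those genes. Only the calls of Srm and Odc1 held under all alternatives. The other 4 were lost under some, those of Oaz1, Oaz2 and Sms with library size alone, and that of Oaz2 also without input library B. That of Azin1 was lost without any 1 p-UPF1 library, without IgG library B or C and without input library A or C, at log2 fold changes of 0.08 to 0.14. Higher genes made up 34.4% of all calls in this contrast as fitted, 52.6% with library size alone, 51.2% with an input library as the TMM reference, 50.2% with an IgG library as that reference and 45.1% with upper-quartile factors.

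Ratios of related genes within a library do not depend on how libraries are scaled, so they were compared directly. The log2 ratio of Oaz2 to Oaz1 was -3.07, -2.97 and -3.04 in input, -3.04, -2.99 and -3.01 in IgG, and -0.19, 0.00 and -0.16 in p-UPF1 libraries. Oaz2 thus went from about 0.123 of the Oaz1 count in input to 0.924 of it in p-UPF1, a 7.52-fold change of the ratio over input and a 7.46-fold change over IgG. The ratio hardly moved between IgG and input (difference 0.01). For Azin1 to Odc1, whose proteins are identical at 49.0% of aligned positions, the log2 ratio was 0.04, 0.11 and 0.03 in input, -0.20, -0.07 and 0.10 in IgG, and 3.24, 3.15 and 3.08 in p-UPF1 libraries. Azin1 and Odc1 were counted about equally in both backgrounds and at 8.92 to 1 in p-UPF1, a 9.27-fold change over IgG. For Sms to Srm, at 19.8% identity, the ratio shifted by 0.24 over IgG and 0.72 over input on the log2 scale, and by 0.48 between IgG and input. Groups of 3 against 3 cannot go below p = 0.1 in the two-sided exact permutation test. All comparisons with p-UPF1 gave that value (adjusted p = 0.129 over 9 exact tests), the groups being apart in each, while between IgG and input the Oaz2 to Oaz1 and Azin1 to Odc1 ratios overlapped (exact p = 0.8 and 0.3). The Sms to Srm ratio was apart between IgG and input as well (exact p = 0.1), so for this pair separation was not limited to p-UPF1.

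**Figure D5:**
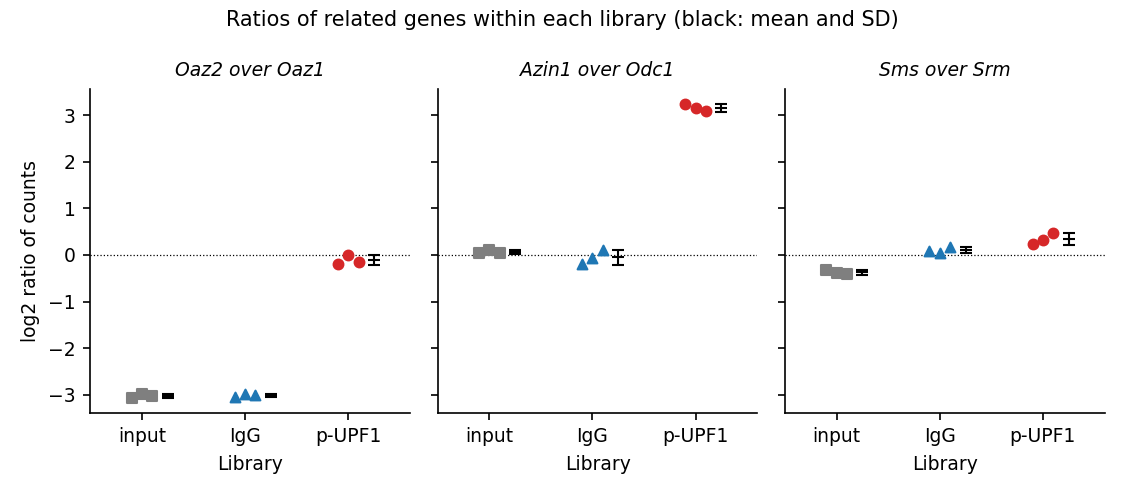
The log2 ratio of the counts of 2 related genes is plotted for each library (points, 3 per group), with the group mean and SD in black beside them. The input and IgG libraries overlap for Oaz2 over Oaz1 and for Azin1 over Odc1, while the p-UPF1 libraries stand 2.90 to 3.21 above them on the log2 scale.

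The choice of genes did not use 3′ UTR length or GC content, which are set beside these values as a description, with no test. The 3 genes that were higher in p-UPF1 have 3′ UTRs of 1075 nt (Oaz2), 1871 nt (Amd1) and 2931 nt (Azin1). The 4 lower genes have 286 nt (Oaz1), 312 nt (Srm), 751 nt (Odc1) and, as the exception, 2286 nt (Sms), and Sat1 has 371 nt. The median of 11896 tested genes was 1015.5 nt. When these were sorted by 3′ UTR length into 4 equal groups, the median log2 change over IgG was -0.80, 0.00, 0.44 and 0.41 from the shortest group to the longest, and 16.7%, 41.6%, 55.1% and 54.7% of genes were higher. The criterion was met by 1.65%, 3.9%, 9.82% and 10.02%. Oaz1, Srm and Sat1 fall in the shortest group, Odc1 in the next, then Oaz2 and Amd1, and Azin1 and Sms fall in the longest. The transcripts' GC content was 39.3% in Azin1, 41.4% in Amd1 and 53.2% in Oaz2, and between 43.5% (Sms) and 59.8% (Srm) in the lower genes, where the median of tested genes was 50.4%.

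Features linked to decay were set beside the values in the same way. A first stop more than 50 nt before the last junction occurred in the main transcript of 47 of 11665 tested multi-exon genes (0.403%), Oaz1 and Oaz2 among them. Of these 47 genes 28 were higher over IgG (59.6%) and 8 met the criterion (17.02%), and their median log2 fold change was 0.70, so that Oaz1 lay on the other side of 0 from most of them. GENCODE lists transcripts of the nonsense-mediated decay class for Azin1 (2), Odc1 (2), Sat1 (1) and Sms (1) and for 29.4% of tested genes. Over IgG, the median log2 change was 0.17 in genes with such a transcript and -0.06 in genes without, the criterion was met by 5.82% and 6.57% of them, and the 4 members with one ranged from -1.29 to 1.92. Genes with an upstream reading frame had a median of 0.18 and those without of -0.16, 6.05% and 6.598% of them met the criterion, and the 5 members with one covered the same range.

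Of 26 other genes of the pathway, 20 had enough counts to be tested. Over IgG, 8 were higher and 11 lower, where 40.4% and 42.2% of all tested genes were. Over input 6 were higher and 10 lower, beside 40.8% and 42.6%, and none met the criterion that 6.25% of all tested genes met. Their median log2 fold change over IgG was -0.39. At an adjusted p under 0.05, 1 of the 20 reached 1 or more over IgG, where 22.2% of all tested genes did. Those at -1 or lower were 5, where 21.9% of all tested genes were. In the catabolic group Smox, spermine oxidase, was the only one of the 20 to reach 1 over IgG on the log2 scale (1.05 ± 0.14 SE, edgeR quasi-likelihood adjusted p = 3.66e-06), and Paox, the acetylpolyamine oxidase, was lower (-0.34). Azin2, the second antizyme inhibitor, was lower at -0.45 over IgG (adjusted p = 0.0186 by the same test) and had -0.09 over input (adjusted p = 0.619), with overlapping libraries there. In the hypusine pathway, which uses spermidine to modify a translation factor, both modifying enzymes were higher (Dhps 0.66 and Dohh 0.29) and both genes of the factor lower (Eif5a -1.04 and Eif5a2 -1.14), on the log2 scale over IgG. Of 8 genes of the methionine cycle and salvage, which supply and recycle the aminopropyl donor, 3 were higher over IgG (Enoph1 0.93, Mtap 0.86 and Adi1 0.28) and 5 lower, from Ahcy (-0.15) to Apip (-1.85). Over input Adi1 passed in neither direction (-0.02, adjusted p = 0.802 by the same test). Among transport genes Atp13a2, a lysosomal polyamine exporter, was higher (0.65), and Atp13a3, a relative of it (-0.56), and Slc3a2, the heavy chain of several amino acid transporters (-1.48), were lower. Over input Atp13a3 had 0.08 (adjusted p = 0.353 by the same test), with overlapping libraries, and its log2 fold change in IgG over input was 0.64. Of the synthesis list, Amd2 was higher (0.83, adjusted p = 0.0306), with the read sharing given above. Over input Amd2 had 0.47 (adjusted p = 0.174 by the same test). Outside the pathway, Peg10, the other tested gene with an annotated frame shift and one that shifts backward, was lower at -0.50 over IgG (edgeR quasi-likelihood adjusted p = 0.00957), with libraries that overlapped. Among the genes not tested, Oaz3, Agmat, Sat2, Satl1, Slc18b1 and Rtl1 had at most 11 counts in any library. Rtl1 was listed with Peg10 for a frame shift, but its RefSeq transcript carries no annotation of ribosomal slippage.

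The genes whose profile over the 9 libraries was most like that of a member were found by the root mean square difference of centred log2 CPM among 8991 genes of at least 10 CPM. The nearest were Kat14, Sft2d2 and B4galt1 to Azin1 (0.03 to 0.06), Ablim1, Gpt2 and Fam136a to Oaz2 (0.02 to 0.04), Kctd13, Ppp4c and Fkbp8 to Oaz1 (0.05 to 0.06) and Leo1, Rbm17 and Trip10 to Odc1 (0.04 to 0.06). Those of Amd1 were Ppat, Gpr174 and Chmp3, those of Sat1 Rad51ap1, Msl3 and Bora, those of Srm Gnb2, Psmd8 and Calr, and those of Sms Dnajc9, Acsl5 and Lsm6. None of these is a polyamine gene of the lists used here.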

How the data were processed

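RIP-seq libraries were made from activated splenic B cells with a directional kit. The authors deposited raw read counts per gene by NCBI Gene number. The submitters' processing notes name cutadapt, HISAT2, featureCounts and mm10, without versions. Whether strand was used for these libraries is not given in the sources used here. Columns carry letters and labels carry replicate numbers, so columns were assigned to groups only. Of 27179 genes, 25275 had a RefSeq symbol.

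Counts were filtered with filterByExpr (minimum count 10, minimum total 15), scaled by TMM and fitted in edgeR 4.0.16 (R 4.3.3) over all 3 groups. Contrasts were tested by the quasi-likelihood test, two-sided, with Benjamini-Hochberg adjustment over 13129 genes at 0.05 and a prior count of 0.125. The test was checked on simulated counts. SE values were derived from the test statistic. Alternatives used limma 3.58.1 and DESeq2 1.42.0. Ratios of genes used a pseudocount of 0.5 and an exact permutation test. Reads carry no molecular identifiers, so counting error understates the true error.

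Transcript features, sequences and positions come from RefSeq on GRCm38.p6 (Biopython 1.88, samtools 1.23.1), and transcript classes from GENCODE M21. An upstream reading frame is an ATG ahead of the coding start with a stop in frame. All 8 members were named by rule, with the genes of the wider lists by count and example and the 3 nearest profiles of each member. Members and lists were chosen with earlier results of these data known. Some items of the lists are not reported here.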

Additional observations from a re-analysis of the deposited data

How the results depend on the processing

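Over 22 alternatives, Oaz1, Odc1, Srm and Sms were lower and Oaz2 and Azin1 higher in p-UPF1 over both backgrounds in every one, among them DESeq2, limma-voom and leaving out each library. Scaling moved the median of all tested genes by at most 0.16 on the log2 scale (-0.16 for p-UPF1 over IgG with library size alone). No member met the bound criterion with upper-quartile factors or with glmTreat (0 in both), which left 541 genes in all instead of 820. Of the 8 genes, 1 rather than 2 was higher in IgG over input at adjusted p under 0.01 and with limma-voom, and 1 to 2 were when a library was left out. Those lower in that contrast were 2 rather than 4 at adjusted p under 0.01, with DESeq2, with DESeq2 size factors and with upper-quartile factors. There was 1 with scaling by library size, with no filter, with only the 2 groups compared and with TMM set on an input or IgG library, and 3 to 4 without a library.

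Signs changed only in values that passed no test as fitted. Sat1 in IgG over input, 0.00 as fitted, was 0.0092 at a minimum of 1 CPM, 0.029 with DESeq2 or its size factors, 0.070 with upper-quartile factors, 0.088 with no filter, 0.10 and 0.11 with an IgG or input reference, 0.11 with only 2 groups, 0.12 with library size alone and -0.095 to 0.048 without a library. Over IgG in p-UPF1, Sat1 was -0.069 with library size alone and -0.044 with upper-quartile factors. Amd1 in IgG over input ranged from -0.022 to 0.091 without a library, and the Oaz2 to Oaz1 ratio there from -0.0084 to 0.038. Leaving out a library kept the p-UPF1 differences of this ratio between 2.84 and 2.95 and of Azin1 to Odc1 between 3.06 and 3.29. The causes were not tested. Division by the longest coding transcript put Azin1 above Sat1 in input, with overlapping libraries. The same letters A to C recur in the columns of each group, so a replicate block by letter was fitted as well, chosen after seeing the data. It changed no call of a member and left 822 genes meeting the criterion, Azin1 at 2.06 over input among them. Deviations from the group mean correlated across genes at r = -0.0051 to 0.054 between libraries of the same letter. Between libraries of different letters r was -0.056 to 0.022. By the study's methods part of a lysate was kept as input and the rest was precipitated, so libraries of different groups may share a lysate. Correlations this small cannot decide whether the letters pair the samples, and the main fit used no pairing.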
